A study of Homo sapiens with 2 samples.

Results

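Of the 2046 genes in the deposited table, 29 carry a symbol that starts with ZNF, ZSCAN or ZKSCAN and a number, the naming series of human zinc finger genes. All 29 are ZNF genes, and no ZSCAN or ZKSCAN gene was listed. The table compares RNA of the line MDA-MB-231, grown from a human breast tumour of the triple-negative kind, between 1 wild-type library (genotype TAMER+/+ in the labels) and 1 knockout library (TAMER-/-) and gives TMEM25 as the targeted gene in its design text. Both cultures were grown in DMEM with serum. Whether the knockout line is a single clone is not given in the sources used here, and the title places the study in the question of how monomeric EGFR acts on STAT3. Every listed gene has a knockout value at least 2 times its wild-type value and a knockout value of at least 1. The table therefore shows how far each zinc finger gene lay above that limit, while genes below it were not analysed here.

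Zinc finger genes of this kind encode proteins that hold DNA with repeated C2H2 fingers, short loops in which a pair of cysteines and a pair of histidines grip a zinc ion. Many also carry a KRAB box, which binds the co-repressor TRIM28 and through it brings histone methylation and silencing to DNA, often at copies of retroelements. KRAB genes multiplied by tandem duplication, above all on chromosome 19, so that neighbours there can resemble each other in coding sequence and promoter. As transcription factors they are usually expressed at low levels.

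The finger that defines the family is shown for 4 listed genes, because it is the feature the name stands for. Each line gives the 90 coding bases of the first finger with the canonical spacing and the joint after it, from GENCODE 29 transcripts on GRCh38, read 5′ to 3′, with the codons of the metal-binding cysteines and histidines in capitals. The stretches are chr20:53582356-53582445 on the minus strand, chrX:153346986-153347075 on the plus strand, chr19:21056921-21057010 on the plus strand and chr19:21117097-21117186 on the plus strand.
ZNF217: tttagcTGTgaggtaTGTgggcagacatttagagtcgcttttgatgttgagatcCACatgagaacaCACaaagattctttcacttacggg
ZNF275: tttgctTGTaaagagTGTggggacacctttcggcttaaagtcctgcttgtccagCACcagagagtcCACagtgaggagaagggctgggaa
ZNF430: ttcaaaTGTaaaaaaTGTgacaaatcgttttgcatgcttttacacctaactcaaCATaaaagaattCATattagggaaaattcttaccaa
ZNF714: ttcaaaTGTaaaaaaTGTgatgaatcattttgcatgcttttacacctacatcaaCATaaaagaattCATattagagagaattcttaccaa
The fingers of ZNF430 and ZNF714, neighbours on chromosome 19, differ at 7 of 90 bases. Only the pair ZNF280C and ZNF280D, which lie on chromosomes X and 15, was as close among 325 pairs of first fingers in 26 genes, where the median identity was 44.4%. At least 1 finger was found in each of the 29 proteins, from 1 in ZNF428 and ZNF511 to 16 in ZNF229 and ZNF443.

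The zinc finger genes sat close to the lower limit of the table. All ratios below are those of the expression values, recomputed here and equal to the ones in the authors' deposited table in 2046 of 2046 genes (within 1e-06). Among the 29 their ratio of knockout over wild type had a median of 2.68 and quartiles of 2.33 and 3.53, against a median of 3.33 and quartiles of 2.42 and 7.29 over all listed genes. The ratio reached 4 in 7 of the 29 genes (24.1%), where 41.2% of all listed genes did, and 10 in 2 genes (6.90%), where 20.1% did. It stayed under 3 in 18 of the 29 (62.1%) against 42.6% of all listed genes. The smallest ratios belonged to ZNF581 (2.03), ZNF384 (2.08) and ZNF19 (2.14), and the highest were those of ZNF618 (14.2) and ZNF229 (12). Each genotype has 1 library, so these are counts without a test, and fewer cells of a type and less RNA per cell cannot be told apart in such bulk samples.

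On the log2 scale with a pseudocount of 1, log2((knockout + 1) / (wild type + 1)), the difference had a median of 1.05 and a standard deviation of 0.28 across the 29 genes, against 1.33 and 0.91 over all listed genes. By this measure the knockout exceeded the wild type 2-fold or more in 18 of 29 genes (62.1%), compared with 80.6% of all listed genes. Counts of reads, scaled by 1.155 so that both libraries have the same reads for a given expression value, placed the lower limit of the 95% counting interval above 2 for 18 of 29 as well, against 76.5% of all listed genes. In the other 11 genes the interval included 2, and in none did it lie below 2. These intervals cover counting error only. The read-count fold was within 10% of the deposited ratio for 27 genes. The exceptions were ZNF75D, a read-count fold of 2.16 beside a ratio of 2.69, and ZNF254, with 2.49 beside 2.24.

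**Figure D1:**
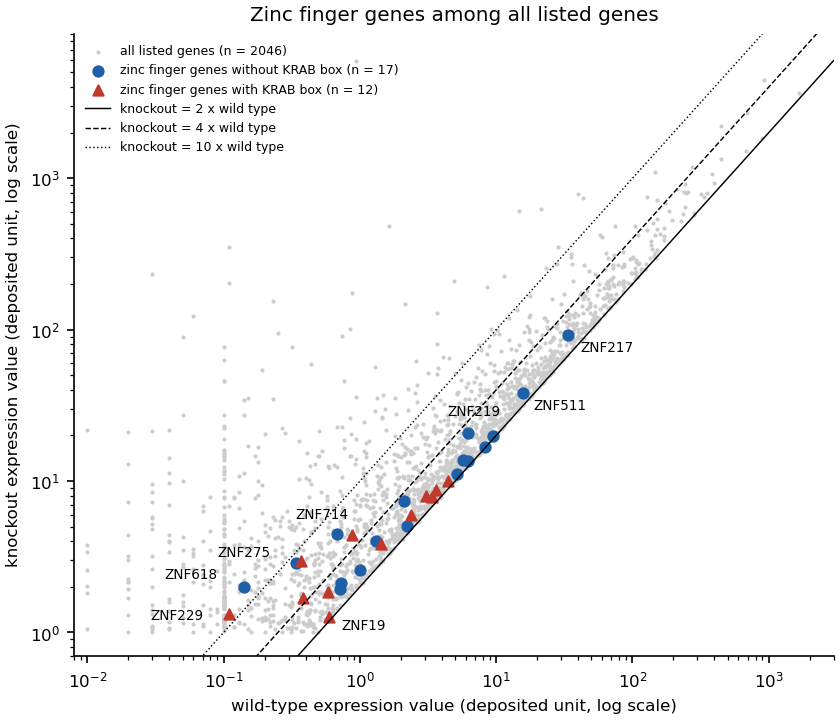
Deposited expression value of the knockout library against that of the wild-type library, both on log axes, for all 2046 listed genes (grey) and the 29 zinc finger genes with (red triangles, n = 12) and without (blue circles, n = 17) a KRAB box. Lines mark ratios of 2, 4 and 10. Most zinc finger genes lie between the first pair of lines, and ZNF618 and ZNF229 lie past the third.

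**Figure D2:**
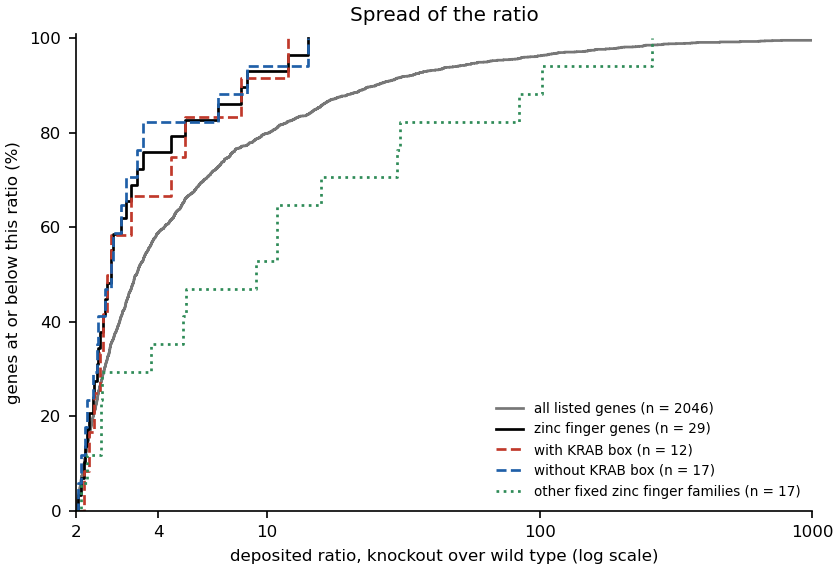
Cumulative share of genes at or below each deposited ratio (log axis) for all listed genes, the 29 zinc finger genes, those with and without a KRAB box, and 17 genes of other zinc finger families. The black curve of the zinc finger genes rises earlier than the grey one of all listed genes and ends at 14.2, while 20.1% of all listed genes lie at 10 or above.

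Abundance was low in both libraries. Knockout values ran from 1.26 (ZNF19) to 92.26 (ZNF217), with a median of 5.07 against 12.12 over all listed genes, and wild-type values from 0.11 (ZNF229) to 33.69 (ZNF217), with a median of 2.10 against 2.91. Values under 5 in the knockout library were found for 14 of 29 genes (48.3%), against 30.9% of all listed genes. The order of the genes was much the same in both libraries (Spearman rho 0.94 across the 29 genes, which share both libraries and were listed for a ratio of at least 2). The 7 genes with a ratio of at least 4 all had a knockout value under 5. None of the 15 zinc finger genes at 5 or above reached a ratio of 4, the highest of them being ZNF771 at 3.53, whereas 32.9% of all listed genes at 5 or above did. Under 5, a ratio of 4 was reached by 7 of 14 zinc finger genes and by 59.6% of all listed genes.

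No zinc finger gene lacked wild-type reads. A count of 0 in the wild-type library was recorded for 4.89% of all listed genes, and 9.48% had at most 3 reads, but the lowest count among the 29 was 9 reads, for ZNF229. ZNF222 and ZNF443 followed with 15.52 and 15.96, and 6 genes in all (20.7%) had fewer than 30, against 27.6% of all listed genes. Every ratio given here for a ZNF gene therefore compares measured reads in both libraries. Ratios of listed genes with a wild-type count of 0 do not, and they are part of the shares over all listed genes.

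A KRAB box was found in 12 of the 29 proteins (41.4%). The pattern was searched in the longest coding sequence of a gene in GENCODE 29 and in those of its other transcripts typed as protein-coding. Among 542 protein-coding reference genes with names of the same series, 277 (51.1%) had one, so 4.33% of reference KRAB genes and 6.42% of those without the box were listed. Expression of the unlisted genes was not analysed here. A 13th, ZNF714, showed the pattern only when any frame of any transcript was read, and was counted without a KRAB box. Whether that stretch is coding was not examined. Knockout values of the 12 KRAB genes ran from 1.26 to 9.97, all below the median of the listed genes. Their median ratio was 2.64 against 2.68 for the 17 others. On the log2(value + 1) scale 8 of 12 (66.7%) and 10 of 17 (58.8%) passed 2-fold, beside 80.6% of all listed genes.

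ZNF229 had the highest ratio among KRAB genes. Its value was 1.32 in the knockout and 0.11 in the wild-type library, from 127 and 9 reads, for a read-count fold of 12.2 (95% counting interval 6.23 to 27.3). With so few wild-type reads the interval spans more than a 4-fold range. ZNF443 followed at 2.97 against 0.37, from 146.86 and 15.96 reads, a read-count fold of 7.95 (4.74 to 14.3). ZNF443 shares 40.2% of the 50-base windows of its reference transcript (the one with the longest coding sequence) with other genes, mostly ZNF799, so its counts depend on how shared reads were divided, which is not given in the sources used here.

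ZNF114 was at 4.41 against 0.88, a read-count fold of 4.90 (3.43 to 7.20). ZNF484, on chromosome 9, was at 1.70 against 0.38, a read-count fold of 4.74 (3.08 to 7.58). These 4 genes are the KRAB members with a ratio of at least 4, and the interval of each lies above 2. On the log2(value + 1) scale ZNF484 nevertheless stayed at 0.97, just short of 2-fold, because the pseudocount weighs most on low values. ZNF222, at 1.85 against 0.58, had the fewest knockout reads of the 29, 54.17, and an interval of 1.65 to 5.47 around its fold of 2.92. It shares 19.3% of its 50-base windows with other genes.

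The other 7 KRAB genes had ratios of 2.14 to 2.69. ZNF254 was the most abundant KRAB gene, at 9.97 against 4.46. ZNF746 encodes PARIS, a repressor known as a target of the ubiquitin ligase parkin and an inhibitor of PGC-1alpha transcription, and was at 8.78 against 3.59, a fold of 2.43 (2.09 to 2.85). ZNF777, next to it on chromosome 7, was at 7.97 against 3.08, a fold of 2.59 (2.15 to 3.13). Both intervals lie above 2 and overlap each other. ZNF267 was at 7.86 against 3.37 and ZNF430 at 5.98 against 2.38, with folds of 2.32 (1.95 to 2.77) and 2.52 (2.09 to 3.06). ZNF75D, the only listed gene in whose protein a SCAN domain was also found, an oligomerization module, was at 3.82 against 1.42. ZNF19 was the least abundant of the 29 at 1.26 against 0.59. Its fold of 2.13 (1.33 to 3.50) had the widest interval of these 7 relative to its size. Exons of other genes overlap 23.5% of the exon bases of ZNF19, and 13.6% of its 50-base windows are shared with other genes.

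Among the 17 genes without a KRAB box, ZNF217 stood far above the rest in abundance. It encodes an oncogenic transcription factor that works with the CoREST repressor complex and is known for amplification in breast cancer. ZNF217, on chromosome 20 (53567065 to 53609907, minus strand, GRCh38), was at 92.26 in the knockout and 33.69 in the wild-type library, from 9878 and 3103 reads. Its fold of 2.76 (2.65 to 2.87) had the narrowest interval of the 29. Its ratio of 2.74 lay at the 36.4th percentile of all listed genes. ZNF511 came next at 38.13 against 15.79, a read-count fold of 2.41 (2.10 to 2.78). Of its exon bases, 46.8% overlap exons of other genes, mostly TUBGCP2 on the opposite strand. ZNF511 also shares 23.5% of its 50-base windows with the annotated gene ZNF511-PRAP1, so its counts depend on how shared reads were divided.

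ZNF219, a transcription factor of chromosome 14, was at 20.84 against 6.23, a fold of 3.29 (2.89 to 3.76). It was one of only 2 genes at a knockout value of 5 or above whose ratio passed 3. The other was ZNF771, at 7.41 against 2.10 from 196 and 48 reads, a read-count fold of 3.53 (2.57 to 4.95). ZNF384, a factor known as a fusion partner in acute leukaemia, was at 19.81 against 9.52, a fold of 2.06 (1.85 to 2.29). ZNF581 was at 16.70 against 8.21 and ZNF280D at 11.14 against 5.17, with folds of 2.05 (1.70 to 2.48) and 2.08 (1.82 to 2.38). The last 3 lay at the table's limit, and their intervals include 2. ZNF280D shares 49.1% of its 50-base windows with the overlapping annotated gene AC090517.4 on the same strand. Exons of other genes also overlap 31.9% of the exon bases of ZNF384, 27.6% of ZNF428, 23.4% of ZNF581 and 22% of ZNF219. The main partners of ZNF384, ZNF428 and ZNF219 lie on the opposite strand and that of ZNF581, ZNF580, on the same strand, and the sources used here do not say how reads in these overlaps were assigned.

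The largest ratios outside the KRAB group came from genes of low abundance. ZNF618, whose protein binds the ubiquitin ligase UHRF2, was at 1.99 in the knockout and 0.14 in the wild-type library, from 347 and 22.03 reads. Its fold of 13.7 (8.87 to 22.1) was the highest of the 29, with an interval that overlaps that of ZNF229. ZNF275, on chromosome X, was at 2.88 against 0.34 from 340 and 35 reads, a read-count fold of 8.41 (5.93 to 12.3). ZNF714 was at 4.49 against 0.68 from 741.3 and 97.18 reads, a read-count fold of 6.61 (5.34 to 8.26), and had the highest log2(value + 1) ratio of all 29, 1.71. These 3 intervals lie wholly above those of ZNF217 and ZNF384. The remaining genes without a KRAB box were ZNF277, ZNF428, ZNF572, ZNF653, ZNF697, ZNF784 and ZNF280C, with ratios of 2.19 to 3.05. Lower limits above 2 were found for ZNF277, ZNF784 and ZNF280C among them. ZNF653 shares 19.3% of its 50-base windows with the annotated gene AC008481.3 on the same strand.

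**Figure D3:**
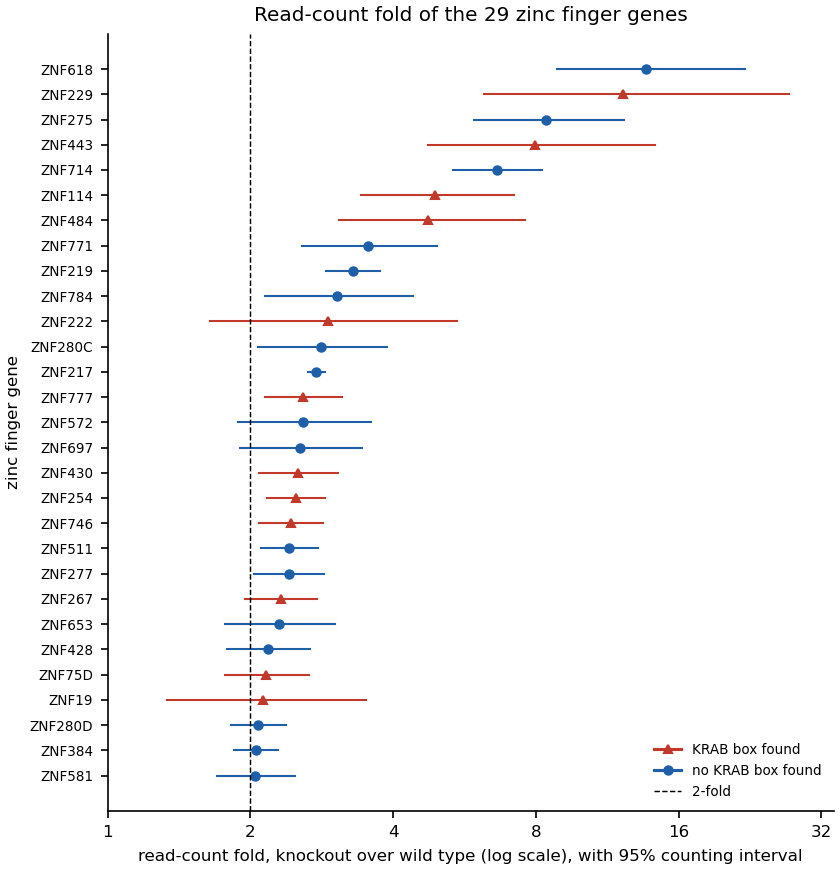
Read-count fold of knockout over wild type (log axis) for each of the 29 zinc finger genes, with its exact 95% counting interval and a dashed line at 2-fold. Intervals of 18 genes lie above the line, those of 11 cross it, and the highest values are those of ZNF618 (13.7) and ZNF229 (12.2).

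Chromosome 19 held 11 of the 29 genes (37.9%) and 256 of the 542 reference genes (47.2%), so 4.30% of its zinc finger genes were listed. On the other chromosomes 18 of 286 (6.29%) were listed, including 3 of 12 on chromosome X (ZNF280C, ZNF75D and ZNF275) and 2 of 12 on chromosome 9. On chromosome 19 only 6 of 192 KRAB genes (3.12%) were listed, against 5 of 64 without the box (7.81%). None of the 20 on chromosome 3 or the 18 on chromosome 6 was listed, nor any of the fewer on chromosomes 2, 4, 5, 11, 17, 18 and 22. Over all chromosomes 29 of 542 (5.35%) were listed. By RefSeq names, 29 of 545 zinc finger genes (5.32%) and 2012 of 20056 protein-coding genes (10.0%) were listed. KRAB genes of the other chromosomes were listed at 6 of 85 (7.06%). These shares are descriptions with no test.

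**Figure D4:**
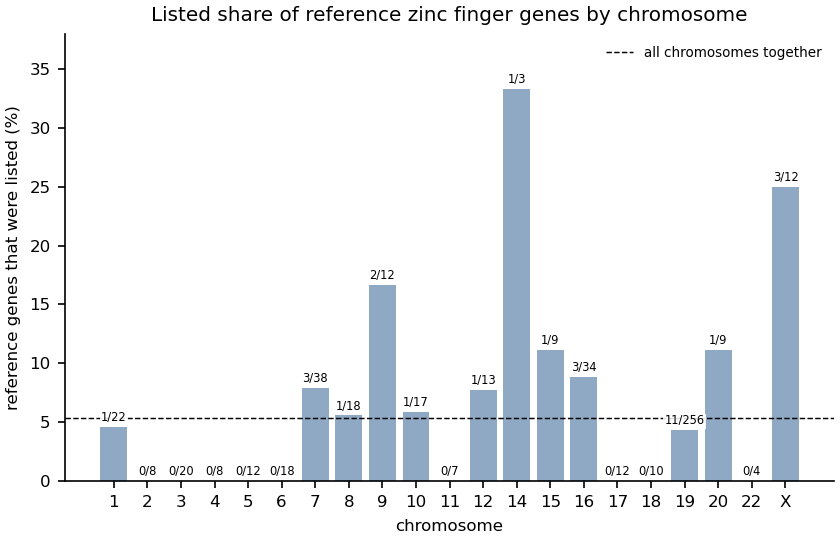
Percent of the reference zinc finger genes of each chromosome that were in the table, with listed over reference counts above each bar and the share over all chromosomes as a dashed line. Chromosome 19 has the most listed genes, 11 of 256, but a lower share than chromosome X with 3 of 12.

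Listed genes within 500 kb of another formed 4 groups with 9 genes in all, and within a group the ratios were not always alike. ZNF777 and ZNF746, 11.6 kb apart on chromosome 7 (149431363 to 149497817, GRCh38), had ratios of 2.59 and 2.45. ZNF430 and ZNF714 lie 22.1 kb apart on chromosome 19 (21020620 to 21125270) and had ratios of 2.51 and 6.60. The read-count interval of ZNF714 (5.34 to 8.26) lies above that of ZNF430 (2.09 to 3.06), so the neighbours differed by more than counting error. ZNF784 and ZNF581, 10.9 kb apart on the long arm of chromosome 19, had ratios of 3.05 and 2.03. The widest group held ZNF428, ZNF222 and ZNF229 over 841.4 kb (43607219 to 44448578), with ratios of 2.19, 3.19 and 12. In that span, which starts and ends at a listed gene, 3 of 20 reference zinc finger genes were listed. Around ZNF443, 17 other reference zinc finger genes lie within 500 kb and none was listed. Among all reference zinc finger genes 29 of 542 (5.35%) were listed, and these local counts were not tested against that share.

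The KRAB boxes of ZNF430, ZNF254 and ZNF267 are printed because these 3 genes had nearly the same ratio, 2.24 to 2.51, and closely related boxes. Capitals mark bases that differ from ZNF430. The 84 coding bases lie at chr19:21033468-21033551, chr19:24105952-24106035 and chr16:31884510-31884593, all on the plus strand of GRCh38.
ZNF430: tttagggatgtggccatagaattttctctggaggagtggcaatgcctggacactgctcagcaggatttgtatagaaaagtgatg
ZNF254: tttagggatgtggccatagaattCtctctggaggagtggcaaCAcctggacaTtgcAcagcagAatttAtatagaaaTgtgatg
ZNF267: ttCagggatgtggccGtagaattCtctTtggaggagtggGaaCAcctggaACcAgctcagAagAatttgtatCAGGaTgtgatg
ZNF254 differs from ZNF430 at 8 bases and ZNF267 at 17, although ZNF267 lies on chromosome 16. Over all 66 pairs of the 12 boxes the identity ran from 52.4% to 90.5%, with a median of 64.3%. The closest pairs were ZNF430 with ZNF254 and ZNF222 with ZNF229, both at 90.5%, followed by ZNF746 with ZNF777 at 85.7%. Close boxes did not mean close ratios, as ZNF222 and ZNF229 had 3.19 and 12.

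Promoters of some related genes resemble each other too. Windows from 250 bases before to 50 after the RefSeq gene start (GRCh38.p14) were matched for 24 of the 29 genes, in 26 windows, and those of ZNF114, ZNF572, ZNF618, ZNF746 and ZNF777 were not. Among 276 pairs of genes, the 250 bases before the start were over 60% identical in 3 pairs only, ZNF430 with ZNF714 (82.4%), ZNF254 with ZNF714 (76.9%) and ZNF254 with ZNF430 (76.0%), where the median pair had 49.2%. The next was ZNF267 with ZNF430 at 58.6%, while ZNF254 with ZNF267 had 52.8%. ZNF222 with ZNF229, whose KRAB boxes are as close as those of ZNF430 and ZNF254, had 49.3%, near the median pair. The stretches below carry the repeated feature, an extended CCAAT box with the letters CCAATCA, shown in capitals. They lie at chr19:21020510-21020619, chr19:21082049-21082158, chr19:24087050-24087159 and chr16:31873648-31873757 on the plus strand and chr19:12441113-12441222 on the minus strand.
ZNF430: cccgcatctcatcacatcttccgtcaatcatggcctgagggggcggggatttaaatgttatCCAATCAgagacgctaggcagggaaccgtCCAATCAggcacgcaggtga
ZNF714: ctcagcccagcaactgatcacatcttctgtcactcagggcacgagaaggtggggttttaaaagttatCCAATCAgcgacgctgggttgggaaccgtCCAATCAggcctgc
ZNF254: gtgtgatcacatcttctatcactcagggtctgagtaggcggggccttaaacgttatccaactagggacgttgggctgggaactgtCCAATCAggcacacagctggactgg
ZNF267: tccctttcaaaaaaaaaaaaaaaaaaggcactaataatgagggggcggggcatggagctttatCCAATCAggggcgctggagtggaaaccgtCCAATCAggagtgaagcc
ZNF443: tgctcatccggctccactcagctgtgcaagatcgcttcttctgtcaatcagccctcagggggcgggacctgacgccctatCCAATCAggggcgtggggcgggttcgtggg
In ZNF430, ZNF714 and ZNF267 a pair of boxes starts 29 bases apart, at 86 and 57, 87 and 58, and 96 and 67 bases before the gene start. ZNF254 and ZNF443 have 1 box each, at 52 and 121 bases before it. The stretch of ZNF254 lies inside its longer GENCODE 29 gene model (chr19:24033405-24129961), whose start is another than that of RefSeq.

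Searched on both strands, CCAATCA was present in 5 of the 26 windows (19.2%), in 6.95% of all 35116 promoter windows and in 18.8% of the windows of reference zinc finger genes. A pair or more was present in 3 of 26 (11.5%), against 1.10% of all windows and 7.45% of those of reference zinc finger genes. Among KRAB genes alone, 4 of 10 windows held the box and 2 of 10 a pair, against 26.3% and 12.1% of the windows of reference KRAB genes. The ratios of the 5 genes with the box ran from 2.24 to 8.03. The GC box letters GGGCGG were found in 15 windows (57.7%, against 45.0% of all windows, 63.2% of those of listed genes and 60.7% of those of reference zinc finger genes), and the ETS core CCGGAA in 12 (46.2%, against 17.2% of all and 45.3% of reference zinc finger genes). The STAT-type palindrome TTCNNNGAA, searched because STAT3 is named in the series title, was in 3 windows, of ZNF222, ZNF229 and ZNF653 (11.5%, against 7.66% of all and 11.8% of reference zinc finger genes). Matches of TTCNNNGAA and CCGGAA can share bases, and a match is a description of letters only. CCAATCA was chosen after these promoters had been seen.

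**Figure D5:**
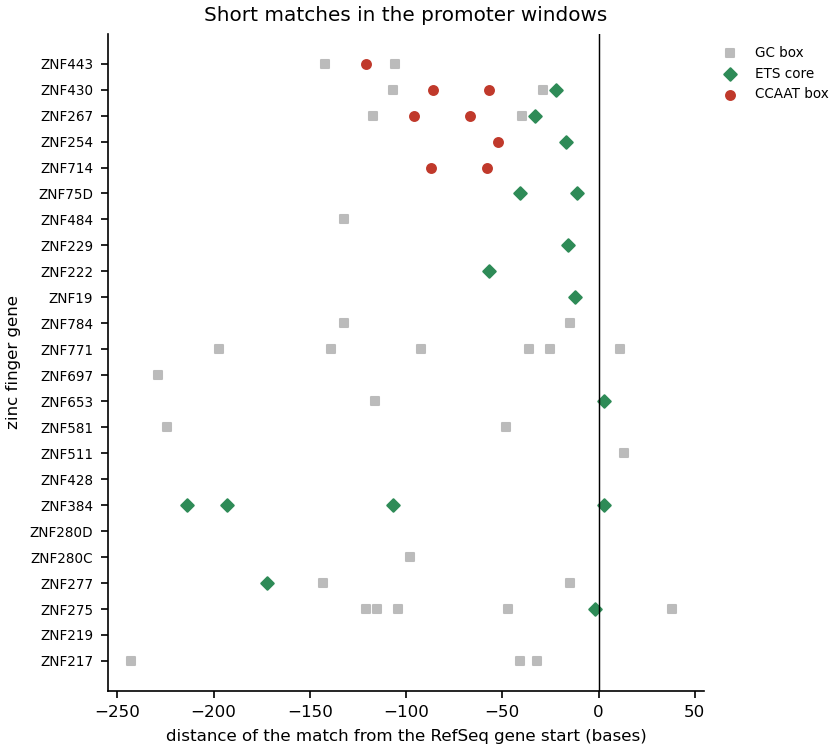
Distance from the RefSeq gene start, in bases, of each CCAAT box, GC box and ETS core match in the promoter windows of 24 zinc finger genes (one window a gene). The CCAAT boxes of 5 genes fall between 121 and 52 bases before the start.

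Genes that work with KRAB proteins were listed about as often as protein-coding genes as a whole. Of 39 genes of the co-repressor and heterochromatin list, 4 (10.3%) were in the table, beside 10.0% of all protein-coding genes, all 4 past 2-fold on the log2(value + 1) scale, as were 80.6% of all listed genes. TRIM28, the co-repressor that KRAB boxes bind, was at 206.6 in the knockout and 79.54 in the wild-type library, with a read-count fold of 2.61 (2.51 to 2.71). MPHOSPH8, a subunit of the HUSH silencing complex, was at 21.52 against 8.60, a fold of 2.47 (2.25 to 2.71). DNMT3A, a DNA methyltransferase, was at 8.33 against 1.87, a fold of 4.10 (3.36 to 5.03). These folds of TRIM28 and MPHOSPH8 lie in the range of most zinc finger genes. CDCA7, which aids DNA methylation through the remodeller HELLS, had 185 reads in the knockout library against 0 in the wild-type library. The other 35 genes of the list were not analysed here.

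Other zinc finger families, fixed by name, spread further than the ZNF genes. Their 17 listed genes had a median ratio of 9.12. A ratio of 4 was reached by 11 of 17 (64.7%), against 7 of 29 ZNF genes (24.1%) and 41.2% of all listed genes. The difference was not tested. Fewer than 30 wild-type reads were counted for 11 of the 17 (64.7%), against 6 of 29 ZNF genes (20.7%) and 27.6% of all listed genes. EGR1, a growth factor-induced factor, was at 20.41 against 0.20, and SALL4, a factor of stem cells, at 2.10 against 0.07. Their wild-type counts were 10 and 5.09 reads. KLF5, a factor of epithelia, was at 12.25 against 4.97, and ZFP30, ZFP69 and ZFP90, which belong to the KRAB family under another name, at 4.86 against 1.97, 1.86 against 0.17 and 7.83 against 3.75. ZFP36 and ZFP36L2 matched by name but bind RNA with fingers of another type. On the log2(value + 1) scale the median of the 17 was 1.22, between those of the ZNF genes and of all listed genes, and 11 of the 17 had a knockout value under 5. A wild-type count of 0 was recorded for ZIC4 and BCL11B. Both have a deposited wild-type value of 0.10 all the same, so their ratios of 30.9 and 10.9 do not rest on wild-type reads.

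TMEM25 was not in the table and its loss could not be checked here. Expression values, counts and ratio gave the same direction for all 2046 genes by their headers, while the headers of the log2 columns are crossed. Of 12 luminal breast markers, 2 were listed, TFF1 (5920 against 0.94) and TFF3 (127.85 against 3.68), and of 11 markers of mesenchymal basal lines only PLAU (1.46 against 0.58). Of markers of other cell types, 1 of 5 for basal keratinocytes, 0 of 6 for fibroblasts, 0 of 5 for leukocytes, 1 of 5 for endothelium and 2 of 4 for neural cells were listed. The luminal share was 16.7% and the mesenchymal share 9.09%, beside 10.0% of all protein-coding genes. A marker lower in the knockout than in the wild-type library could not be listed. The part of these markers in the zinc finger results was not tested. Reads of the listed genes summed to 4138956 in the knockout and 1046999 in the wild-type library, which is part of each library and not its depth.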

How the data were processed

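Per the submitters' processing notes, CASAVA 1.4, HISAT2 2.0.4 and build GRCh38.p12 were used. For the gene counter, annotation and use of strand, the sources used here give nothing. For each library the authors deposited an expression signal scaled for length and depth, with no unit named. The authors also deposited an expected count of reads per library, not whole in 14 (knockout) and 17 (wild type) of the 29 genes. A ratio of the knockout to the wild-type expression was deposited too, per the file headers. The log2 columns that the authors deposited have crossed headers and served only to check direction. All columns matched a sample or comparison (0 left over).

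Read-count folds are ratios of counts rounded to whole numbers, divided by 1.155 (the median in 1133 genes counted 100 times or more in the wild type), with an exact conditional binomial 95% interval. For listed genes with a rounded wild-type count of 0, the fold was taken against 3 reads. Domains were found by amino acid patterns in translated GENCODE 29 coding sequences. RefSeq proteins, the source first planned, were not used here. Promoters were compared by global alignment (match 1, mismatch -1, gap opening -2, gap extension -0.5). Scripts ran in Python 3.11.15 with pandas 2.3.3, numpy 2.4.6, scipy 1.17.1 and Biopython 1.88. Intervals were tested on simulated counts drawn from the model they assume. The KRAB and finger patterns were tested on a made-up protein written to match them, which cannot show how many real domains they miss.

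The members, lists and rules were chosen with earlier results of these data known. By rule the text names genes without wild-type reads (0), the 10 highest and 5 lowest log2 ratios at a knockout value of at least 5, the 5 highest and 3 lowest values, groups of 3 neighbours, SCAN genes, genes with no finger found (0) and genes with an interval below 2 (0). The remaining genes were named after their values were seen. A looser KRAB pattern found 313 reference genes in place of 277, and SCAN was found in 18 of 28 reference ZSCAN and ZKSCAN genes.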

Additional observations from a re-analysis of the deposited data

How the results depend on the processing

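The count of zinc finger genes past 2-fold, 18 of 29 with a pseudocount of 1, was 28 with a pseudocount of 0.1, 3 with 5, and 9 of the 12 genes with a mean value of at least 5. It was 29 with the deposited ratio, which the table's limit sets, and 29 with read counts. With a pseudocount of 1 it was 0 when log2 ratios were centred on the median of all listed genes or when 4-fold was asked. Their median log2 ratio, 1.05, was 1.34 with a pseudocount of 0.1, 0.62 with 5, 1.42 with the deposited ratio and 1.37 with read counts. Centring, which subtracts 1.33, turned it to -0.28. For KRAB genes the count of 8 of 12 became 11 with a pseudocount of 0.1, 12 with the deposited ratio and with read counts, 0 with a pseudocount of 5, 4 of the 4 genes with a mean of at least 5, and 0 after centring or at 4-fold. The median of the KRAB genes, 1.03, became 1.36 with a pseudocount of 0.1, 0.57 with 5, 1.4 with the deposited ratio and 1.35 with read counts. After centring it was -0.29. Over all listed genes, 2011 (98.3%) passed 2-fold with a pseudocount of 0.1, 844 (41.3%) with 5 and 279 (13.6%) after centring. With read counts 1986 (97.1%) passed 2-fold. On the log2(value + 1) scale 436 (21.3%) passed when 4-fold was asked. Of the 1217 listed genes with a mean of at least 5, 1117 (91.8%) passed 2-fold.

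After centring, 21 of the 29 genes lay below the median of the table, down to -0.82 for ZNF19. Of these, 11 had been under 2-fold before and 10 had been past it: ZNF229 (-0.26), ZNF254 (-0.32), ZNF267 (-0.31), ZNF277 (-0.21), ZNF428 (-0.31), ZNF430 (-0.28), ZNF511 (-0.11), ZNF746 (-0.24), ZNF777 (-0.19) and ZNF784 (-0.21). All 21 were still higher in the knockout than in the wild-type library by their values. A looser KRAB pattern found 12 genes again, and one read in any frame, chosen after seeing the data, found 13. Groups of neighbours held 6 genes at 250 kb and 11 at 1 Mb, against 9. No paired analysis was possible because each genotype has 1 library. With 1 library each, culture and genotype cannot be told apart, and at low counts the interval of a fold is wide, as for ZNF229.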
